A study of Mus musculus with 9 samples.

Results

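A renewed high-fat diet (HFD) was compared with a first one of the same length in epididymal adipose tissue, the visceral fat depot beside the testis. The comparison held 17150 of the 76356 nuclei that passed the limits on genes and UMIs (unique molecular identifiers, each standing for 1 RNA molecule that was read) in the 9 libraries of the series. Of these, 9863 came from the library HCH and 7287 from the library CCH. Members were chosen by library alone: every barcode of the 2 libraries that had 500 to 3000 genes detected and no more than 40000 UMIs, whatever its cell class.

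Both groups were wild-type male C57BL/6J mice aged 30 weeks, and both libraries carry the label of set S075. HCH mice had eaten HFD for 12 weeks, chow for 8 weeks and HFD again for 4 weeks, whereas CCH mice were labelled as having had 26 weeks of chow before their 4 weeks of HFD. Each library was made by droplet single-nucleus RNA sequencing from 1 pool of tissue of 5 mice, so mice of a pool could not be told apart and the diet history and the pool cannot be told apart either. Libraries of earlier stages of the same design served for context: H (12 weeks of HFD) and C (chow), both 18 weeks old and of set S075, and HC (12 weeks of HFD, then 8 weeks of chow) and CC (chow), both 26 weeks old and of set S019. The other libraries were HH (25 weeks of HFD, 31 weeks old, S075), HHC (25 weeks of HFD, then 8 weeks of chow, 39 weeks old, S019) and CCC (chow, 39 weeks old, S019).

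Adipose tissue under a high-fat diet takes up macrophages, and those that settle around overloaded or dying adipocytes become lipid-associated macrophages (LAMs). They take up lipid through scavenger receptors, break it down in an enlarged lysosomal compartment and are marked by Trem2, a lipid-sensing receptor, and by Gpnmb, a membrane glycoprotein of lysosomes and the cell surface. Perivascular macrophages (PVMs) are the resident scavengers of the lean tissue and carry Lyve1, Cd163 and coagulation factor F13a1. Adipocytes make and store triglyceride and release it as fatty acids. Progenitors of the stroma make the collagen matrix, and a subset of them marked by Dpp4 and Pi16, called fibro-inflammatory progenitors (FIPs), gives rise to few adipocytes.

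With 1 library a group no difference has an error between samples and no test was possible. All intervals are 95% intervals that reflect counting error and nothing else. They are Clopper-Pearson for a share, Newcombe for a difference of 2 shares, exact Poisson for CPM (UMIs of a gene per 1000000 UMIs of its class) and exact conditional for a ratio. A gene was counted as past the fold when its CPM summed over a class differed at least 2-fold, that is by a log2 ratio of HCH over CCH of 1 or more in size, with at least 50 UMIs in the 2 libraries together. Classes are named "-like" because they rest on marker genes.

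The libraries were of similar depth. CCH held 61395565 UMIs on 9883 barcodes and HCH 59889943 on 12214, and the median nucleus within the limits had 3240 and 3029 UMIs. More barcodes of CCH than of HCH lay over the limit of 3000 genes (24.1% against 17.5%). The 2 libraries shared 36 barcodes, which is 0.364% of those of CCH and 0.295% of those of HCH. After removal of 161 and 305 predicted doublets and of 85 and 236 nuclei in mixed low-count clusters, 7041 nuclei of CCH and 9322 of HCH were classed.

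HCH stood apart from CCH by transcripts that were higher in every cell class alike. Genes for ribosomal proteins took 0.299% of the UMIs of macrophage-like nuclei in CCH and 0.973% in HCH. In adipocyte-like nuclei they took 0.180% and 0.769%, and in endothelial-like nuclei 0.513% and 2.01%. Their median log2 ratio lay between 1.43 in B cell-like and 2.12 in adipocyte-like nuclei, and none of the 71 to 80 ribosomal protein genes tested was past the fold in the lower direction in any of 10 classes. Genes of the mitochondrial respiratory chain had median log2 ratios from 0.57 to 1.40. In mesothelial-like nuclei, where HCH had 1.27%, the ribosomal share was 0.405% in C, 0.454% in CC, 0.305% in HC, 1.05% in H and 1.10% in HH. High shares were thus not particular to HCH.

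**Figure D1:**
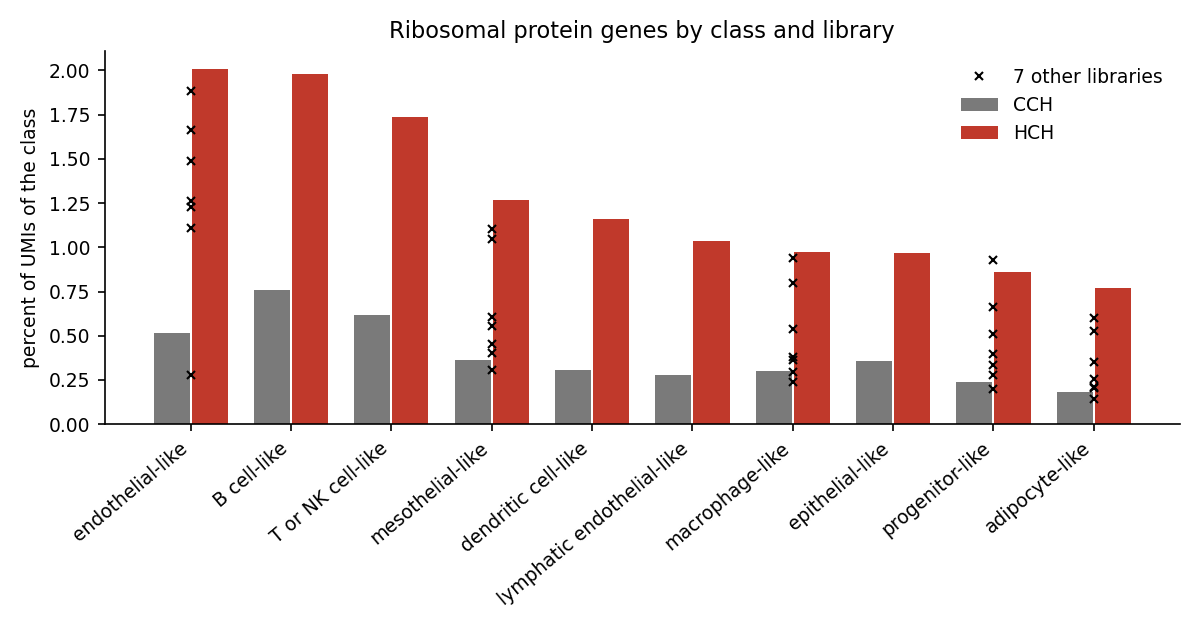
Share of UMIs from ribosomal protein genes (y axis, percent of all UMIs of the class) in 10 cell classes (x axis) of CCH (grey bars) and HCH (red bars), with crosses for the 7 other libraries in the 5 classes where they were measured. HCH was higher in all 10 classes, from 0.769% in adipocyte-like to 2.01% in endothelial-like nuclei.

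The same held for abundant transcripts of single cell types. Of 2583 genes tested in all 10 classes, 110 were past the fold and higher in HCH in every class, and 53 of these encode ribosomal proteins. Among the others were the macrophage genes Gpnmb, Trem2, Mmp12, Lyz2, Tyrobp and Cd68, the stromal genes Col1a1 and Lum, and the immunoglobulin light chain Igkc. Gpnmb had a median log2 ratio of 5.70 over the 10 classes and ranged from 3.46 to 6.77. Macrophage markers were also higher as a whole in classes that are not macrophages: the summed CPM of 15 of them was 711 in CCH and 1929 in HCH in adipocyte-like nuclei and 416 and 1848 in progenitor-like nuclei, with none at 0. How far RNA from macrophages accounts for the 110 genes was not tested. The median log2 ratio of a gene over the other classes is therefore given beside its own for the leading genes that at least 3 other classes had. The own value minus this median is called the class-specific part. It compares ratios and not amounts. A gene close to absent from the other classes of CCH can reach a large ratio there with little RNA, which lowers the class-specific part. A second measure was the ratio after the CPM of mesothelial-like nuclei of the same library had been subtracted as background, and list counts by it are given for some lists. What was left was set to at least 3 UMIs, and list members at that floor in both libraries were left out. A gene called lower by this measure can therefore be one that was near or under background in HCH, even with a higher CPM there. Likewise, a gene called higher can be one that was near or under background in CCH. Cyp2e1, a cytochrome that oxidises ethanol and fatty acids, was the 1 gene lower in all 10 classes, with log2 ratios from -2.72 to -1.53.

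Macrophages made up more of the tissue after the renewed diet and adipocytes less. Macrophage-like nuclei were 24.8% of CCH (1746 of 7041) and 36.7% of HCH (3423 of 9322), a difference of 11.9 percentage points (interval 10.5 to 13.3). These shares lay between those of the chow libraries C (16.6%), CC (11.4%) and CCC (14.7%) and those of H (58.5%) and HH (46.0%), the libraries after 12 and 25 weeks of HFD. HC, the stage before the renewed diet, held 24.4%. Dendritic cell-like nuclei (5.41% and 6.94%), T or NK cell-like nuclei (2.74% and 4.00%) and B cell-like nuclei (1.90% and 2.46%) were also more frequent in HCH.

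Adipocyte-like nuclei were 9.09% of CCH and 4.66% of HCH, a difference of -4.43 points (interval -5.24 to -3.65). These are nuclei under the limit of 3000 genes, and without that limit adipocyte-like nuclei made up 25.0% and 12.9%. Mesothelial-like nuclei (9.46% and 5.75%), lymphatic endothelial-like nuclei (3.52% and 2.15%), endothelial-like nuclei (8.54% and 6.94%) and epithelial-like nuclei (6.01% and 4.53%) were less frequent in HCH. Progenitor-like nuclei were 27.0% and 24.4%, and the difference of -2.59 points became -0.654 points without the limit on genes. For mast cell-like nuclei (0.185% and 0.290%) and smooth muscle or pericyte-like nuclei (1.31% and 1.13%) the interval of the difference included 0. Shares of nuclei add up to a fixed whole, and a lower share does not say that a class lost cells.

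**Figure D2:**
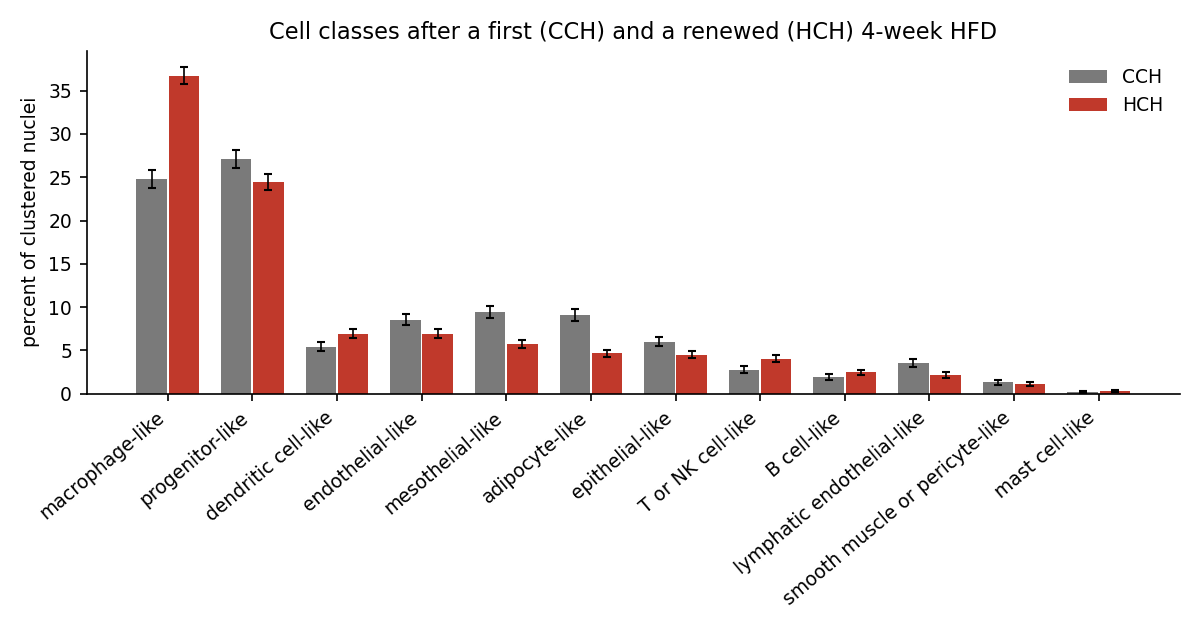
Percent of clustered nuclei (y axis) in 12 cell classes (x axis) of CCH (grey, 7041 nuclei) and HCH (red, 9322 nuclei), with Clopper-Pearson 95% intervals for counting error only. Macrophage-like nuclei stand at 24.8% and 36.7% and adipocyte-like nuclei at 9.09% and 4.66%.

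Within the macrophages LAM-like nuclei made up more and PVM-like nuclei less of HCH than of CCH, by amounts that depended on the clustering. LAM-like and PVM-like sub-clusters are defined by genes that themselves differed between the libraries. The macrophage-like nuclei were therefore clustered again without 871 genes. Left out were the markers of the kinds and the members of the LAM, resident receptor, cathepsin and MHC class II lists. Genes past the fold in at least 50% of the classes where they were tested made up the rest. The new clusters were still named by the markers. LAM-like nuclei were then 6.64% of the macrophage-like nuclei of CCH (116 of 1746) and 27.7% of those of HCH (949 of 3423), 21.1 points apart (interval 19.1 to 22.9). PVM-like nuclei were 49.5% and 24.3%, proliferating nuclei 1.55% and 4.91%, and nuclei without a kind name 42.3% and 43.1%. When every gene past the fold in macrophage-like nuclei was also left out, 2729 genes in all, LAM-like nuclei were 21.2% and 36.5%, PVM-like nuclei 32.0% and 20.3% and proliferating nuclei 1.78% and 4.27%. Of that last grouping 56.1% of the LAM-like nuclei had been LAM-like with all genes, so its kinds hold partly different nuclei. Both clusterings were chosen after seeing the data.

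With all genes in the clustering, LAM-like nuclei were 4.81% and 28.3% of macrophage-like nuclei. By the rule used for naming, the main LAM-like sub-cluster met 4 of 8 LAM markers (Gpnmb, Atp6v0d2, Mmp12 and Itgax) but not Trem2. A smaller one, with 6 nuclei of CCH and 35 of HCH, met 7 markers, Trem2 among them. CCH lay near the chow libraries C (4.48%) and CCC (5.43%) and above the chow library CC (0.763%, 3 of 393 nuclei), whereas HCH lay below H (36.9%), HH (32.2%), HC (33.1%) and HHC (33.4%). PVM-like nuclei were 56.9% in CCH and 26.6% in HCH, against 22.1% in HC and 14.9% in H. The LAM-like difference of 23.5 points became 9.48 at resolution 1, and the PVM-like difference of -30.2 points became -63.0 without correction for library. For proliferating nuclei the values were 1.37% in CCH, 4.62% in HCH, 2.33% in HC and 5.30% in H. Non-perivascular macrophages (NPVM), which carry MHC class II genes, were 24.6% and 27.0%, with an interval of the difference that included 0.

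**Figure D3:**
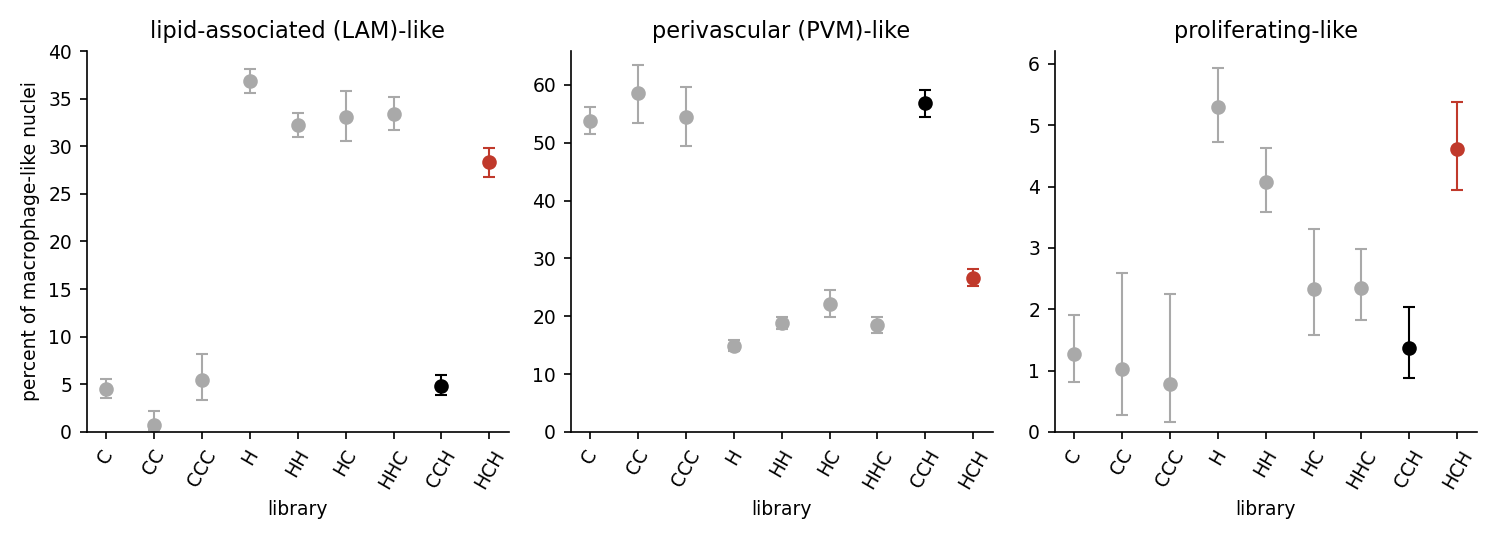
Percent of macrophage-like nuclei (y axis) that were lipid-associated, perivascular or proliferating in each of the 9 libraries (x axis), with Clopper-Pearson 95% intervals for counting error only, CCH in black, HCH in red and the others in grey. CCH (4.81% LAM-like) sits near C and CCC and above CC (0.763%), and HCH (28.3%) below the 4 libraries H, HH, HC and HHC (32.2% to 36.9%).

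In macrophage-like nuclei 1828 genes were higher in HCH, 14.4% of the 12690 tested, and 683 were lower (5.38%). Different clusters held most of the class in the 2 libraries: a PVM-rich cluster led by F13a1 and Cd163 held 1283 of the 1746 nuclei of CCH, and a LAM-rich cluster led by Rgs1, Efr3b and Fat3 held 1872 of the 3423 nuclei of HCH. Differences over the class therefore mix a different makeup with differences within a kind. The other classes could be subtracted for 896 of the higher and 430 of the lower genes, of which 194 and 278 were still past the fold, while 932 and 253 were tested in too few other classes.

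The gene with the largest lower bound of the log2 ratio was Gpnmb (chromosome 6, 49036546 to 49070929, plus strand, GRCm38). Its CPM was 44.2 (interval 38.8 to 50.2) in CCH and 1225 (1204 to 1246) in HCH, a log2 ratio of 4.79. The other classes had a median log2 ratio of 6.08 for Gpnmb, so the class-specific part was -1.29. Their levels were lower, for example 3.10 and 336 CPM in endothelial-like and 13.7 and 236 in mesothelial-like nuclei. In macrophage-like nuclei C held 53.2 CPM, H 2717 and HC 2495, so CCH was near the chow library C and HCH lay between C and H. Mmp12, a macrophage elastase, stood at 65.5 and 875 CPM (log2 ratio 3.74, other classes 5.92), and Atp6v0d2, a subunit of the proton pump that acidifies lysosomes, at 69.3 and 918 CPM (3.73, other classes 5.91).

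Among the other leading genes, Fgf13 and Fat3 had log2 ratios far above those of the other classes. Fgf13, an intracellular protein of the fibroblast growth factor family (X chromosome, 59062145 to 59568071), had 28.8 CPM in CCH and 512 in HCH (log2 ratio 4.15), while the other classes had a median of 0.34. Fat3, a giant cadherin (chromosome 9, 15910189 to 16501285), had 25.0 and 448 CPM (4.16, other classes 0.86). Fgf13 stood at 495 CPM in H and 417 in HC, and Fat3 at 1039 in H and 806 in HC, so both were high at the stages before the renewed diet too. Efr3b (7.03 and 205 CPM), which anchors a lipid kinase at the plasma membrane, Olfr111 (2.96 and 71.7) and Dlgap2 (1.29 and 41.0) were tested in too few other classes for such a comparison. Ctsk, a collagen-cleaving cathepsin, stood at 10.2 and 174 CPM (4.09, other classes 3.59), and the defensin Defb37 had 0 and 86 UMIs, at least 14.0-fold higher against a floor of 3 UMIs.

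Values within the kinds were compared for 3 of these genes. In the main LAM-like sub-cluster, which held 78 nuclei of CCH and 934 of HCH, Gpnmb had 682 and 2620 CPM, Fgf13 312 and 1222, and Fat3 370 and 1110. NPVM-like nuclei (429 and 925) had 12.2 and 426 CPM of Gpnmb, 14.1 and 236 of Fgf13 and 2.81 and 189 of Fat3. In PVM-like nuclei (993 and 912) Fgf13 had 8.53 and 16.4 CPM and Fat3 1.42 and 5.35, close to absent in both libraries, whereas Gpnmb had 2.84 and 222. The Gpnmb level of PVM-like nuclei was near that of mesothelial-like nuclei, which are no macrophages and had 13.7 and 236 CPM, so that it was not above background there, and by a limit of 2-fold over that level neither was the Gpnmb of NPVM-like nuclei.

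Of the LAM programme, 19 genes of lipid uptake and lysosomal digestion that include the 8 markers of LAMs, all 19 were higher in macrophage-like nuclei of HCH, with a median log2 ratio of 2.65. Of all 12690 genes 14.4% were higher, and their median log2 ratio was 0.15. Trem2 had 14.2 and 192 CPM (log2 ratio 3.75), Lpl, the lipase that frees fatty acids from lipoproteins, 429 and 1743 (2.02), and Cd36, a fatty acid receptor, 1137 and 3476 (1.61). The class-specific parts of the list had a median of 0.00, and Cd9, a tetraspanin with 39.0 and 202 CPM, was the only one of the 18 members with values in other classes to be past the fold after subtraction (1.43). With mesothelial-like background subtracted instead, 17 of 19 members were higher and Acp5 was lower, with a median log2 ratio of 3.04, so the outcome for this list depended on which subtraction was made. Within LAM-like nuclei 10 of 19 members were higher and Dcstamp was lower (13.9% and 3.62% of all genes tested there), 17 of 19 were higher in NPVM-like nuclei (11.4%) and 16 of 18 in PVM-like nuclei (8.31%). Since 9 of the 19 genes were higher in all 10 classes of nuclei, these counts do not separate expression by a kind from RNA that all classes had. With LAM-like nuclei left out of the class, 1530 of 12012 genes were higher (12.7%) and 519 lower (4.32%). The class-specific part was -2.19 for Atp6v0d2, -2.18 for Mmp12, -1.27 for Itgax and -1.21 for Trem2, whose ratios were thus smaller in macrophage-like nuclei than in the median of the other classes.

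**Figure D4:**
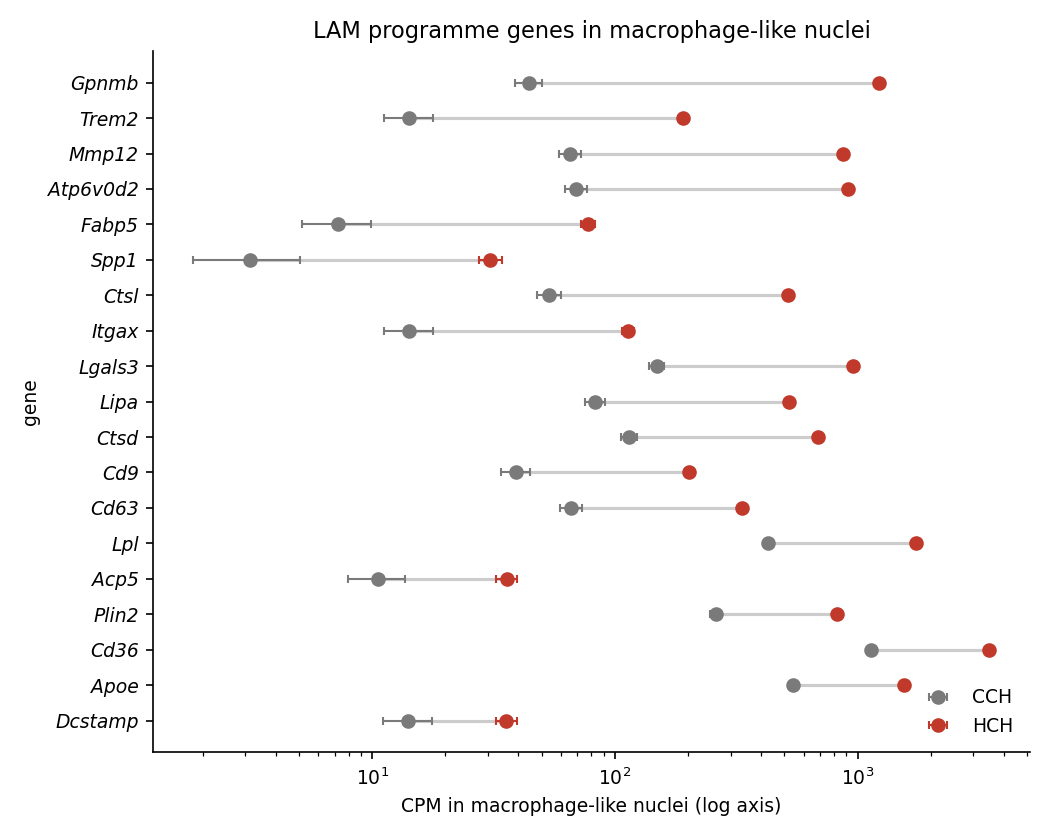
CPM (x axis, log scale) of the 19 LAM programme genes (y axis, ordered by log2 ratio) in macrophage-like nuclei of CCH (grey) and HCH (red), with exact Poisson 95% intervals for counting error only. Every gene was higher in HCH, from a log2 ratio of 1.34 for Dcstamp to 4.79 for Gpnmb.

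Genes of the lysosome were higher in part. Of 11 cathepsins, the lysosomal proteases, 7 were higher and none lower (median log2 ratio 1.32), where 14.4% of all genes of the class were higher. Ctsd stood at 114 and 685 CPM (2.58) and Ctsl at 53.6 and 518 (3.27), while Ctsc was lower by less than the fold, at 1086 and 630 (-0.79). Of 17 genes of the lysosomal proton pump 7 were higher and none lower (median 0.66), and Atp6v1a (141 and 360 CPM) and Atp6v1b2 (183 and 518), both of the part of the pump that splits ATP, were past the fold after subtraction of the other classes. Lysosomal hydrolases and membrane proteins had 9 of 22 members higher (0.79), while Lamp1 stood at 188 and 331 CPM (0.82). After subtraction of the other classes the median was -0.26 for the cathepsins and -0.22 for the hydrolases. With mesothelial-like background subtracted instead, 5 of 9 cathepsins, 8 of 16 pump genes and 10 of 19 hydrolase genes were higher and none lower, so these lists too depended on which subtraction was made. The MiT transcription factors, which bind the promoters of lysosomal genes, were not past the fold: Mitf had 1683 and 2530 CPM (0.59), Tfeb 98.9 and 130, Tfe3 54.7 and 70.8, and Tfec 103 and 68.0. After subtraction of mesothelial-like background Tfeb alone of these 4 was past it, and higher.

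MiT factors recognise the letters CACGTG, which read the same on both strands. Promoters are shown for Gpnmb, the leading gene, and for Ctsd and Ctsl, the cathepsins of the LAM programme, because these genes moved together; each run is the 250 bases before the gene start from RefSeq (build GRCm38.p6), written 5′ to 3′ on the strand of the gene, with CACGTG in capitals.
Gpnmb, chr6:49036268-49036517, plus strand: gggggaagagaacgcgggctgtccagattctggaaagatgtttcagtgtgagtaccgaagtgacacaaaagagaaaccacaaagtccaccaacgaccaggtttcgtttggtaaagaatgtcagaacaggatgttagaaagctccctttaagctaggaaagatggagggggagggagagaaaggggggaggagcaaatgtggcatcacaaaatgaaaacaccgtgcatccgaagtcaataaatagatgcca
Ctsd, chr7:142387828-142388077, minus strand: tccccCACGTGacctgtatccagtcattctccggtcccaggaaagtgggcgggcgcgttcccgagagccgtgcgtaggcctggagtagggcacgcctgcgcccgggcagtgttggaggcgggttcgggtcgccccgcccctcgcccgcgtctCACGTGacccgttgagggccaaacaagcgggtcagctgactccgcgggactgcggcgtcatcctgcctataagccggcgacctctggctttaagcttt
Ctsl, chr13:64370521-64370770, minus strand: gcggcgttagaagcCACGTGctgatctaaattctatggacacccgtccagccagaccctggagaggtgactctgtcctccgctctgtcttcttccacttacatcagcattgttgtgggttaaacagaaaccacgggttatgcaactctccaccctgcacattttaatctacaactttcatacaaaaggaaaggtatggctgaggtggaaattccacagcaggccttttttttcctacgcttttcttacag
The Ctsd window holds the letters at positions -245 and -98 from the gene start, the Ctsl window at -236, and the Gpnmb window nowhere. In windows of 300 bases, 250 before and 50 after the start, 7.15% of all 32851 RefSeq promoters hold the letters, or 8.09% of 27025 genes. Of the 64 members of the LAM, cathepsin, proton pump and hydrolase lists 48 matched the table by symbol, and 15 of these (31.2%) hold the letters, among them Atp6v1a, Lamp1 and Plin2. The match is a description of the sequence and not of binding.

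Of 17 genes of cholesterol handling 10 were higher in macrophage-like nuclei and none lower (14.4% and 5.38% of all genes), with a median log2 ratio of 1.27 and, after subtraction, of 0.54. Abcg1, which exports cholesterol, had 52.1 and 164 CPM, Soat1, which esterifies it, 116 and 326, and Nr1h3, a nuclear receptor for oxysterols, 17.0 and 41.0.

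Of 12 resident macrophage receptors 4 were lower over the class and none higher (5.38% and 14.4% of all genes, median log2 ratio -0.55): Cd163, the haemoglobin scavenger receptor, with 882 and 291 CPM, Lyve1, a hyaluronan receptor, with 147 and 54.9, F13a1 with 6355 and 2814, and Timd4, a receptor for dying cells, with 80.1 and 21.0. In PVM-like nuclei none was lower past the fold (1.59% of all genes were), with F13a1 at 8315 and 8668 CPM and Cd163 at 1181 and 884. In NPVM-like nuclei 5 of 12 were lower (3.64% of all genes), and F13a1 stood at 4179 and 1455 CPM there. H held 117 CPM of Cd163 and HC 87.0 over the class.

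Beside 14.4% higher and 5.38% lower among all genes of the class, 17 of 26 cell cycle genes tested were higher and Kif23 was lower (median log2 ratio 1.17), with Mki67 at 8.32 and 23.3 CPM and Top2a, a topoisomerase of dividing cells, at 12.8 and 40.3. Immediate early genes had 6 of 15 members higher and Fosb lower; Atf3, a stress-induced repressor, stood at 20.9 and 125 CPM (2.58), and its class-specific part was 2.02. NF-kB inflammatory genes had 3 of 13 members higher and 1 lower: Tnf (2.40 and 11.6 CPM), Il1rn, the interleukin-1 antagonist (1.48 and 19.4), and Tnfaip2 (13.3 and 70.0), against Ptgs2 (46.8 and 1.17), the inducible cyclooxygenase. Ptgs2 was also lower in other classes (median -2.79). Of 11 interferon-stimulated genes Isg15, Ifit3 and Rsad2 were higher, the highest of them Rsad2 at 11.4 CPM in HCH.

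Where 14.4% of all genes were higher, MHC class II presentation (5 of 9 higher, median 1.31), chemokines and receptors (11 of 17, 1.33) and complement (6 of 15, 0.52) had no member past the fold after subtraction among the 7, 6 and 14 members that other classes also had, and their medians then were -1.13, -1.46 and -1.40. With mesothelial-like background subtracted, 1 of 9, 7 of 16 and 0 of 10 members tested were higher, and Ccl5 and Cxcl10 of the chemokines lower. H2-Aa, an MHC class II chain, had 194 and 533 CPM in macrophage-like nuclei, and its median log2 ratio in other classes was 2.73 against 1.46 here. Ccl2, the monocyte-attracting chemokine, had 14.8 and 40.5 CPM (1.45, other classes 2.42).

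The most strongly lower genes of the class rested on a few nuclei. Of the 10 genes with the largest bound, 7 (Ctnna3, Saxo1, Brinp3, Nrg3, Gpc5, Sh3gl3 and Dcdc2c) had 87.7% or more of their CCH UMIs in a sub-cluster of 15 nuclei of CCH and 1 of HCH that was led by Ctnna3 and by the sperm genes Prm1 and Tnp1. Ctnna3, an alpha catenin, had 818 UMIs in CCH and 62 in HCH, and 767 of the 818 lay there. Vmn2r26 and the lipoxygenase Alox15 had 92.2% and 83.7% of theirs in a sub-cluster of 52 nuclei of CCH and 13 of HCH. Without both sub-clusters 1875 genes were higher and 488 lower. Spata16, with 63 UMIs in CCH and 1 in HCH, had 15 of the 63 in the sperm-gene sub-cluster.

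In adipocyte-like nuclei (640 of CCH and 434 of HCH, median 5478 and 4278 UMIs) 1231 of 9259 genes were higher in HCH (13.3%) and 171 lower (1.85%), and 411 of 1108 and 65 of 112 genes that other classes also had remained past the fold after subtraction. Markers of other classes moved with these counts: beside the macrophage markers given above, the summed CPM of 10 progenitor markers was 1461 in CCH and 2719 in HCH, with none at 0. The 10 adipocyte markers summed to 25674 and 22185 CPM. The part of macrophage and stromal RNA in the higher genes was not tested. Scaling by TMM, which trims extreme genes, lowers every log2 ratio of this class by 0.28, so values of this size carry no direction. The gene results given for adipocyte-like nuclei rest on nuclei under the upper limit on genes. Without that limit the class made up a larger share of both libraries, as given above, and 2160 genes were higher in HCH. The values below therefore do not describe the adipocyte-like nuclei with more genes detected.

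Several of the leading higher genes are known from macrophages and other immune cells. Atp6v0d2 had 1 UMI in CCH and 98 in HCH (0.297 and 56.7 CPM) and stood at 69.3 and 918 CPM in macrophage-like nuclei. Cd84, a receptor of immune cells, had 2.08 and 93.1 CPM (log2 ratio 5.49, other classes 2.06), Arhgap25, a Rac regulator of blood cells, 2.37 and 42.8, and Ccl7, a monocyte chemokine, 1.19 and 30.1. St18, a zinc finger repressor, had 0.297 and 52.0 CPM. Atp6v0d2, St18 and Arhgap25 had median log2 ratios of 4.71, 3.78 and 1.23 in other classes.

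Tnc, Rgs22, Cfap44 and Rp1 had low ratios in the median of the other classes that had them. Tnc, the matrix protein tenascin C, had 2 UMIs in CCH and 86 in HCH (0.593 and 49.7 CPM, log2 ratio 6.39 with an interval of 4.49 to 9.46, other classes 0.34), and it was at most 3.03 CPM in the adipocyte-like nuclei of the 7 other libraries. Rgs22 (1.48 and 31.8 CPM), Cfap44 (1.19 and 27.2) and Rp1 (1.48 and 28.9), a protein of photoreceptor cilia, had medians of -0.40, 0.31 and 0.52 in other classes and in the other libraries reached at most 16.1, 14.5 and 9.79 CPM, each in CC. Trdn, which is known from calcium release in muscle, had 5.04 and 182 CPM and a median log2 ratio of 2.50 in other classes. Tnc and these 3 genes were highest in HCH among the 9 libraries, and no second HCH pool was measured. Rgs22 and Rp1 also lead a cluster of epithelial-like nuclei, and the 10 epithelial markers summed to 17.2 and 45.1 CPM in adipocyte-like nuclei, with 1 at 0 in each library; their part in these genes was not tested.

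The lower genes of adipocyte-like nuclei were led by Cish, a feedback inhibitor of growth hormone and cytokine signalling (chromosome 9, 107296026 to 107302784), with 59.9 CPM (202 UMIs) in CCH and 0.578 (1 UMI) in HCH. Cish ranged from 2.33 CPM in CC to 195 in C and stood at 37.4 in HC, so HCH was the lowest of the 9 libraries. Cyp2e1 (chromosome 7, 140763739 to 140774987) had 847 and 128 CPM (log2 ratio -2.72, other classes -2.09), with 1895 in C, 80.5 in H and 452 in HC. Complement component C6 had 222 and 30.6 CPM, the receptor tyrosine kinase Erbb4 198 and 39.9 (other classes -2.38), and Syt2, a calcium sensor of exocytosis, 153 and 28.3. The adhesion molecule Ncam2 had 30.8 and 2.89 CPM, and Mycl, a MYC family factor, 15.4 and 0.578. The protamine Prm1 (48.3 and 1.73) and the transition protein Tnp2 (21.7 and 0.578) are genes of maturing sperm.

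Of 15 genes of de novo fatty acid synthesis Acacb was lower and Scd2 higher, beside 1.85% lower and 13.3% higher among all genes of the class, and Scd2 had a class-specific part of 0.29. With mesothelial-like background subtracted, 2 of 13 were higher (Acly and Scd1) and 4 lower (Acaca, Acacb, Elovl6 and Srebf1). Acacb, the acetyl-CoA carboxylase at mitochondria, had 602 and 153 CPM (log2 ratio -1.97, class-specific part -1.70), with 1609 in C, 204 in H and 590 in HC. Acaca, its cytosolic counterpart, stood at 918 and 464 CPM (-0.99), Fasn, the fatty acid synthase, at 75.9 and 83.8, and Scd1, a desaturase, at 715 and 1190 (0.74). Of 12 genes of triglyceride synthesis 1 was lower, Gpam, the mitochondrial acyltransferase that starts glycerolipid synthesis, with 387 and 148 CPM (-1.39, class-specific part -1.19). Dgat2, the last enzyme of the path, had 709 and 801 CPM.

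Adrenergic and insulin genes were lower in part, where 1.85% of all genes of adipocyte-like nuclei were lower and 13.3% higher. Of 12 lipolysis genes 3 were lower: Adrb3, the beta-3 adrenergic receptor, with 1368 and 496 CPM, Adrb1 with a log2 ratio of -1.33, and Abhd5, the coactivator of the triglyceride lipase, with 234 and 85.6. G0s2, the inhibitor of that lipase, was higher (389 and 821). Adrb3, Abhd5 and G0s2 were not past the fold after subtraction, Adrb1 was tested in too few other classes, and Adrb3 had a median of -2.13 in other classes. The lipases themselves were not past the fold (Lipe 953 and 779, Pnpla2 192 and 153). Insulin signalling had 2 of 14 members lower, among them Pik3r1, the regulatory subunit of PI3-kinase, with 1690 and 556 CPM, which was past the fold also after subtraction. Insr stood at 708 and 585 CPM and Slc2a4, the insulin-responsive glucose transporter, at 40.6 and 54.4.

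Counts of regulators and secreted factors are to be read against 13.3% higher and 1.85% lower among all genes. Prdm16, a coregulator of beige fat, was higher at 24.9 and 87.3 CPM (log2 ratio 1.81, other classes -0.45), with 15.5 in C, 98.4 in H and 232 in HC. Of 14 adipogenic transcription factors the other one past the fold was Cebpd (20.2 and 41.6 CPM), and Pparg, the master regulator, had 2870 and 2679. With mesothelial-like background subtracted Cebpd was no longer past it, Prdm16 and Cebpb were higher, and Klf15, Klf9 and Rxra were lower. Of 9 adipokines 1 was higher, and Adipoq had 181 and 282 CPM and Lep 252 and 352. The growth hormone axis had 2 of 8 members lower, Cish and Igf1, an insulin-like growth factor (679 and 300 CPM, class-specific part -1.64). Ghr, the receptor, stood at 15368 and 11640.

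Remaining lists of adipocyte-like nuclei, immediate early genes apart, had few members past the fold, with shares to be read against the 13.3% higher and 1.85% lower among all genes. Lipid droplet proteins had 1 of 7 higher (Plin2, 105 and 245 CPM), fatty acid uptake and caveolae 2 of 16 higher (Fabp5 and Gpihbp1), fatty acid oxidation 0 of 16 in either direction, and amine and xenobiotic oxidases 2 of 9 lower (Maob, 157 and 78.1 CPM, and Cyp2e1). Fabp5 and Gpihbp1 were higher past the fold after neither subtraction. Glycolysis and pyruvate genes had Pdk4, which blocks pyruvate entry into mitochondria, higher at 24.6 and 73.4 CPM and Slc2a3, a glucose transporter, lower at 271 and 99.5, both also after subtraction. Aldoa, Gapdh and Pgam1 of that list were higher before subtraction alone. Immediate early genes were 6 of 8 higher (median log2 ratio 1.60, after subtraction 1.22), with Fos at 4.45 and 20.2 CPM, Btg2 at 18.7 and 68.8 and Dusp1 at 20.2 and 56.7. Fos, Junb, Ier2, Btg2 and Dusp1 were past the fold also after subtraction of the other classes, but with mesothelial-like background subtracted 3 members could be tested and Ier2 and Btg2 alone were higher. H held 16.6 CPM of Fos and 104 of Btg2, and HC 0.857 and 4.57.

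In progenitor-like nuclei (1904 and 2279) 1286 of 12453 genes were higher (10.3%) and 139 lower (1.12%), and 106 of 750 and 14 of 65 genes that other classes also had remained past the fold after subtraction, while 536 and 74 could not be compared. The part of macrophage RNA in these counts was not tested. FIP-like nuclei were fewer in HCH. Clustered without 852 marker and shared genes, they were 31.8% of progenitor-like nuclei in CCH (605 of 1904) and 18.0% in HCH (410 of 2279), a difference of -13.8 points (interval -16.4 to -11.2), and 31.2% and 18.0% when the genes past the fold in the class were left out too. With all genes the shares were 31.4% and 17.2%, with 24.8% in C, 18.7% in CC, 16.7% in H and 9.92% in HC. CCH was thus the highest of these 6 libraries.

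Sema3e and Pld5, which also lead the FIP-like sub-cluster, were among the lower genes. Sema3e, a guidance cue, had 569 and 229 CPM, Pld5 60.6 and 20.3, Tmtc2 1345 and 487, and Cd55, which shields cells from complement, 834 and 341. Within FIP-like nuclei Sema3e stood at 1332 and 1015 CPM, Cd55 at 1881 and 1183 and Tmtc2 at 2341 and 1420, each lower in HCH by less than the fold. Dach2 (16.6 and 0.790 CPM), Adgrb3 (6.48 and 0.922), Tll2, a procollagen protease (41.9 and 10.4), Spsb4 (8.07 and 1.32), Rcvrn (9.65 and 1.71) and Stmn4 (17.0 and 3.82) were lower too. In FIP-like nuclei 580 of 8297 genes were higher (6.99%) and 86 lower (1.04%), and in all other progenitor-like nuclei 1130 of 11694 were higher (9.66%) and 114 lower (0.975%).

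Among the higher genes of progenitor-like nuclei, Cyp7b1 and Ppargc1a were tested in 3 other classes and past the fold in none of them. Cyp7b1, which hydroxylates oxysterols, had 21.2 and 99.8 CPM (log2 ratio 2.24, other classes -0.38), and Ppargc1a, a coactivator of mitochondrial genes, 10.2 and 52.3 (2.35, other classes 0.14). Cyp7b1 stood at 168 CPM in H, 143 in HC and 41.2 in C. Mmp11, a stromal metalloproteinase, had 12.2 and 51.7 CPM, Fbln7, a matrix adhesion protein, 3.46 and 18.8, Nfasc, an adhesion molecule, 3.02 and 16.3, Slc7a15 5.33 and 30.7, and Egfros, a noncoding transcript beside Egfr, 42.5 and 152. Tnc had 5 UMIs in CCH and 86 in HCH, of which 80 lay in 1 sub-cluster led by Postn and Notch3 (4.85 and 76.1 CPM there). Lum, a proteoglycan of collagen fibrils, had 67.6 and 243 CPM (1.85), less than the median of 2.10 in the other classes. Defb37, a defensin of the epididymis, had 0 UMIs in CCH and 63 in HCH, at least 19.2-fold higher against the floor.

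Matrix genes were higher in small numbers, with shares near the 10.3% of all genes of the class for collagens, glycoproteins and TGF-beta genes. Of the 18 collagens, 16 glycoproteins and 11 proteases that other classes also had, Tnc was past the fold after subtraction. Of 20 collagen chains Col1a1 (log2 ratio 1.59), Col6a1 (72.0 and 159) and Col6a5 (182 and 369) were higher, and Col3a1 stood at 881 and 1667 (0.92), with a median after subtraction of -0.64 for the list. With mesothelial-like background subtracted, 6 of 15 collagen chains were higher and none lower. That background is rich in stromal transcripts. The 10 progenitor markers summed to 4188 CPM in CCH and 6491 in HCH in mesothelial-like nuclei, against 1017 and 2696 in endothelial-like nuclei. For the lists of progenitor-like nuclei the subtraction can thus remove more than RNA that all classes had. Of 19 matrix glycoproteins and crosslinking enzymes Tnc, Thbs2 (10.2 and 23.3) and Sparc (264 and 597) were higher, and Fbn1, the main protein of microfibrils, had 2502 and 1292 (-0.95). After that subtraction 4 of 15 were higher, Tnc but not Thbs2 or Sparc among them, and Fbn1 and Ccn2 were lower. Matrix proteases and inhibitors had 4 of 14 higher, the gelatinase Mmp2 (34.7 and 103), Mmp3 (6.34 and 13.4), Mmp11 and Timp1 (3.89 and 18.6). With mesothelial-like background subtracted, 4 of 9 were higher (Mmp2, Mmp11, Mmp14 and Adamts1) and none lower, while Mmp3 and Timp1 were no longer past the fold. Among 23 genes of TGF-beta, BMP and activin signalling Tgfb1 (13.5 and 29.5) and the activin inhibitor Fst (15.8 and 35.7) were higher. After subtraction of mesothelial-like background 3 of 18 were higher, Tgfb1 but not Fst among them, and 5 were lower. Of 6 PDGF ligands and receptors Pdgfb (2.30 and 6.19) and Pdgfrb (69.3 and 174) were higher and Pdgfc (148 and 72.0) lower. Once mesothelial-like background was subtracted, 4 of them could be tested, Pdgfrb was higher and Pdgfb and Pdgfc were lower. For Pdgfb, whose CPM was higher in HCH, this is no fall in its own level. Complement genes were 9 of 14 higher (median after subtraction 0.11), including C3 (192 and 558) and C4b (51.3 and 139) but also C1qb (22.8 and 218), a macrophage product. With mesothelial-like background subtracted, 4 complement genes could be tested, of which C1qb and C4b were higher and C5ar1 lower. Of 10 cell cycle genes Diaph3 was lower (38.2 and 14.4), whereas in macrophage-like nuclei it was higher (47.9 and 104), and of 15 immediate early genes Fosb was lower (6.91 and 2.50).

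In endothelial-like nuclei (601 and 647) 937 of 8275 genes were higher (11.3%) and 141 lower (1.7%). Genes of fatty acid uptake were 5 of 16 higher: Fabp4, a fatty acid carrier, with 2230 and 7229 CPM, Lpl with 859 and 1949, Gpihbp1, which holds Lpl at the capillary wall, with 138 and 452, Fabp5 with 42.1 and 193, and Lrp1 with 44.0 and 160. None was past the fold after subtraction of the other classes, where Fabp4 had a median of 1.44. With mesothelial-like background subtracted 6 of 12 were higher (Lpl, Fabp4, Fabp5, Acsl1, Cav1 and Gpihbp1). Of 14 genes of VEGF, angiopoietin and Notch signalling the apelin receptor Aplnr was higher (9.29 and 34.8) and Vegfa lower (49.6 and 21.3), of 7 endothelial adhesion genes none was past the fold, and of 10 immediate early genes Fos, Jun and Junb were higher. On the higher side stood Hp, the haptoglobin, with 144 and 891 CPM (log2 ratio 2.63, other classes 2.23), Ccl11, the eosinophil chemokine, with 5.58 and 61.2 (3.46, other classes 2.91), and Ear2 with 1.24 and 34.2 (4.79, other classes 2.69), which were higher in every other class that had them. On the lower side stood Erbb4 (72.5 and 7.74, other classes -2.20), the RNA editing family member Adarb2 (201 and 41.9) and Csmd1 (265 and 59.9, other classes 0.72).

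**Figure D5:**
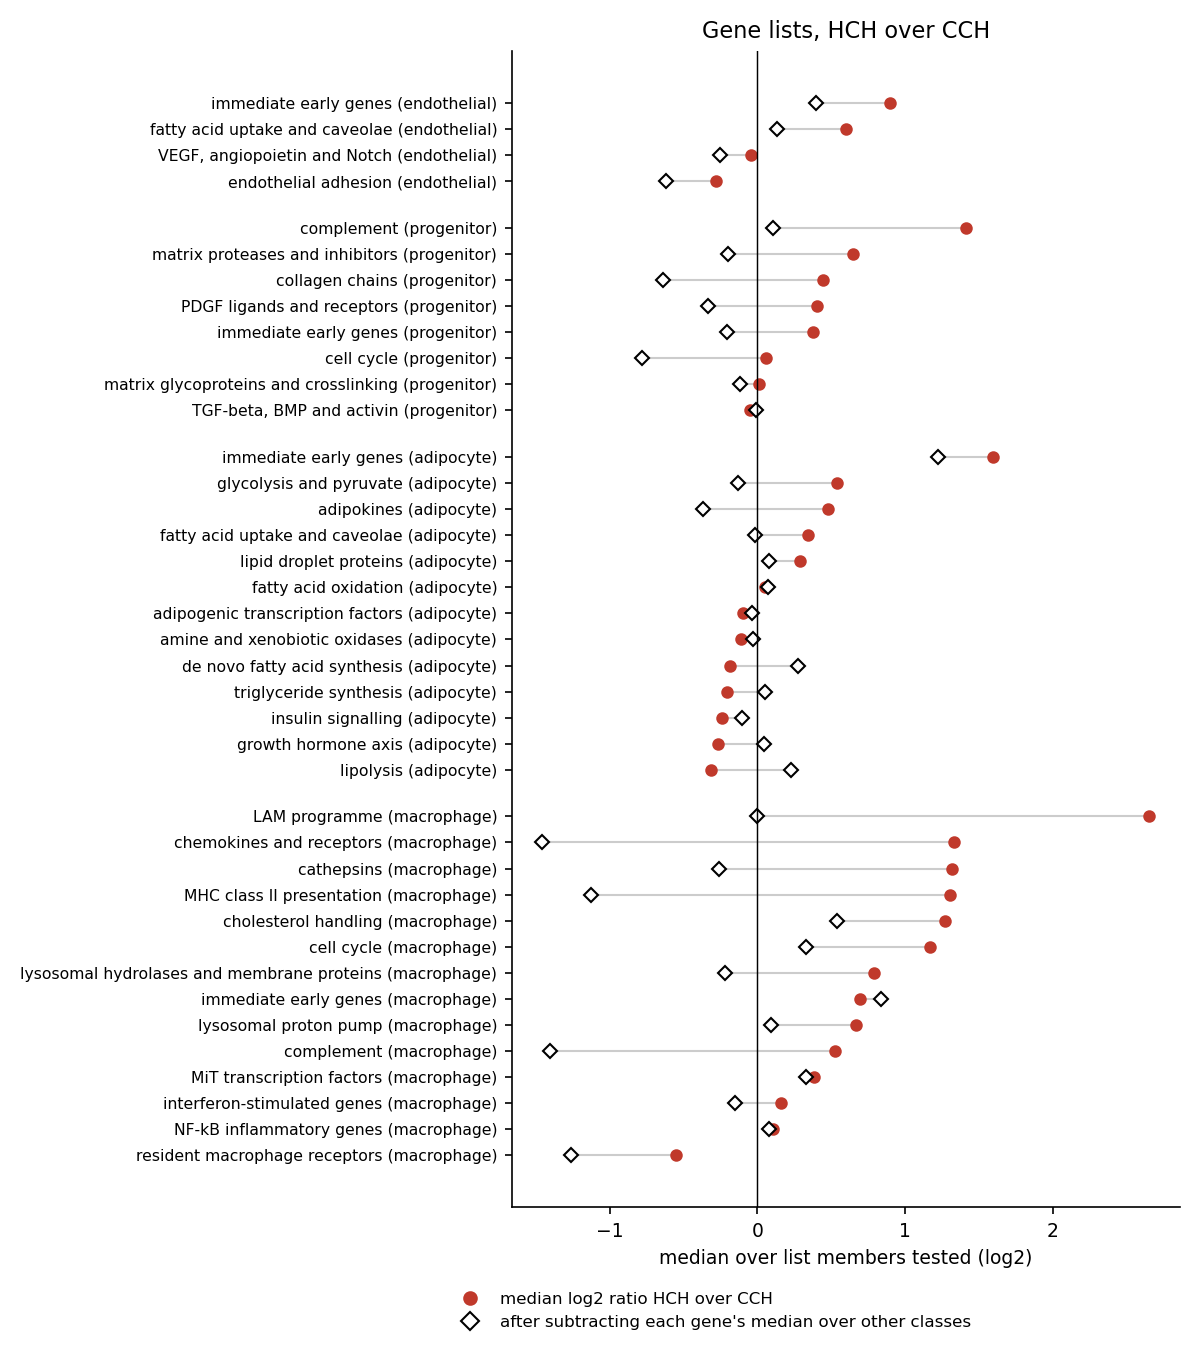
Median log2 ratio of HCH over CCH of each gene list (red circles, x axis) in macrophage-, adipocyte-, progenitor- and endothelial-like nuclei (y axis, list and class), and the same after subtracting each gene's median over the other classes (open diamonds). The LAM programme moves from 2.65 to 0.00 and the chemokines from 1.33 to -1.46, while immediate early genes of adipocyte-like nuclei stay at 1.22.

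Many of the genes that were higher or lower after the renewed diet over all macrophage-like nuclei had been so at each of the earlier stages, where the makeup by kinds differed too. In every class compared the shared part was smaller for HC over CC than for H over C. The share of all genes that were higher was also smaller for HC over CC in every class. The shared parts therefore do not rest on a like base, and each is given beside the share of all genes. Differences between classes in these shares were not tested. HC and CC, and H and C, share no library with HCH and CCH. H and C are of set S075, as HCH and CCH are, and HC and CC of set S019. Stage and set therefore cannot be told apart. Of the genes tested in both pairs that were higher in HCH macrophage-like nuclei, 50.9% (467 of 918) were also higher in HC than in CC, where 10.1% of all genes were, and 83.1% (1467 of 1765) were higher in H than in C, where 23.3% were. Of the lower genes 61.9% were lower in HC (9.55% of all genes) and 89.8% in H (12.4%). Taken the other way, the shared genes were 50.5% of those higher and 30.0% of those lower in HC. LAM-like nuclei were 33.1% of macrophage-like nuclei in HC and 0.763% in CC, and 36.9% in H and 4.48% in C. PVM-like nuclei were 22.1% in HC and 58.5% in CC, and 14.9% in H and 53.8% in C. The part of this makeup in the shared genes was not tested.

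For progenitor-like nuclei 26.1% of the higher genes were also higher in HC over CC (4.11% of all genes) and 78.4% in H over C (17.9%), and of the lower genes 44.6% (5.97%) and 55.6% (5.07%). In adipocyte-like nuclei 10.1% of the genes higher in HCH (105 of 1035) were also higher in HC over CC (2.18% of all genes), which is 54.4% of the genes higher in HC, and 128 were lower there. Against H over C the share was 68.7% (21.4% of all genes), although H held only 174 adipocyte-like nuclei. Of the lower genes 16.2% were lower in HC (4.14%) and 57.1% in H (6.7%). Endothelial-like nuclei had 11.3% of their higher genes in common with HC over CC (4.48% of all genes) and 69.6% with H over C (10.6%), and of the lower ones 16.3% (3.24%) and 42.9% (4.9%). For mesothelial-like nuclei the values were 10.7% (2.48%) and 64.1% (8.24%) for higher genes and 41.5% (4.95%) and 49.5% (4.27%) for lower ones. Of the genes higher in HCH mesothelial-like nuclei 45 were lower in HC over CC and 24 higher, and of those lower in HCH endothelial-like nuclei 19 were higher in HC over CC and 17 lower. How far these shares follow from RNA that all classes of a library have in common was not tested.

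Smaller classes gave fewer genes. In dendritic cell-like nuclei 895 of 8091 genes were higher (11.1%) and 127 lower (1.57%), among them Dscam (1 UMI in CCH, 0.712 and 46.6 CPM), Atp6v0d2 (2.14 and 56.1, log2 ratio 4.71, other classes 5.91) and the B cell chemokine Cxcl13 (0.712 and 32.1), against Sv2b (61.2 and 9.52), Kcnip4 (238 and 51.6) and Tmem154 (208 and 59.1). T or NK cell-like nuclei had 417 of 4383 genes higher (9.51%) and 143 lower (3.26%). The carbonic anhydrase-related Car10 had 0 and 74 UMIs there, at least 11.3-fold higher against the floor, and the chemokine Ccl4 3.21 and 76.3 CPM and the MHC class II chain H2-Eb1 51.3 and 492 (log2 ratio 3.26, other classes 2.62), while Dach2 (1652 and 136), Ctnna2 (314 and 14.7) and Cntn1 (289 and 22.0) were lower. In B cell-like nuclei 278 of 3165 genes were higher (8.78%) and 60 lower (1.9%). Ighg2c, a class-switched immunoglobulin heavy chain, had 0 and 70 UMIs, at least 11.8-fold higher, and Tox, a nuclear regulator of lymphocytes, 8.76 and 157 CPM (other classes -0.05). C1qb stood at 39.4 and 445 (3.50, other classes 3.13), while Sox5 had 4637 and 2207, Lifr 197 and 62.0 and Iqgap2 140 and 39.9.

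Epithelial-like nuclei had 532 of 8708 genes higher (6.11%) and 186 lower (2.14%), led by Akr1b7, an aldo-keto reductase, with 646 CPM in CCH and 0.687 in HCH, and by Ptgs2 and its antisense neighbour Ptgs2os with 316 and 189 CPM in CCH and 0 UMIs in HCH. Ptgs2, with 472 UMIs in CCH, was at least 153-fold higher there. Both Akr1b7 and Ptgs2 were lower in other classes too (medians -4.49 and -2.79). Akr1b7 stood at 919 CPM in C, 4038 in HC and 0 UMIs in H and HH. The epididymal genes Adam7 (0 and 73 UMIs, at least 25.0-fold), Pate1 (0.669 and 57.0 CPM) and the transporter Abcb5 (5.35 and 221) were higher. Some of these genes led small clusters of a first clustering that was not corrected for library. One led by Abcb5, with Adam7 among its leading genes, held 8 nuclei of HCH and 0 of CCH. One with Akr1b7 among its leading genes held 37 of CCH and 0 of HCH. In the corrected clustering, which gave the classes, the cluster with Akr1b7 among its leading genes held 50 nuclei of CCH and 20 of HCH. Mesothelial-like nuclei had 641 of 8868 genes higher (7.23%) and 109 lower (1.23%), including Ltbp2 (2.03 and 41.9 CPM), Hs3st4 (2.54 and 27.4) and the glutamate receptor Grm3 (12.2 and 79.8), against the orphan receptor Nr4a3 (45.8 and 7.57), Kcnd2 (296 and 103) and Syvn1 (83.4 and 26.8). Lymphatic endothelial-like nuclei had 265 of 4347 genes higher (6.1%) and 72 lower (1.66%), with the lymphatic chemokine Ccl21a at 192 and 772 CPM (log2 ratio 2.01, other classes 1.98), Lrg1 at 32.3 and 102 (1.66, other classes 1.79) and Gpihbp1 at 53.3 and 147 (1.47, other classes 1.66) on the higher side, and Nos3, the endothelial nitric oxide synthase, at 108 and 31.4, Nrxn3 (477 and 169) and Adamts9 (396 and 171) on the lower side.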

How the data were processed

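The deposited files hold raw counts: UMI counts per gene and barcode, which the authors made with Cell Ranger 6.1.2 on mm10 with intronic reads included, before their own filters in Seurat 4.1.0, doublet removal and integration. Those later steps were done again here. All 9 libraries of nuclei from epididymal adipose tissue were clustered together so that classes were the same in each. The groups came from the sample labels, which call the control diet chow.

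Scrublet (in scanpy 1.11.5, with Python 3.11.15) marked doublets in each library by its automatic threshold, which removed 2.21% of CCH and 3.09% of HCH. Other libraries in which that threshold marked under 0.5% lost their highest scores at the expected rate. Clusters of mixed markers whose median UMI count was under 66.7% of their libraries' medians were set apart. Leiden clustering (leidenalg 0.10.2, resolution 0.5) was run on 2000 variable genes and 30 components, corrected for library by a Harmony procedure (theta 2, 50 soft clusters, 8 rounds). A marker counted for a cluster when seen in 10% or more of its nuclei and 2-fold or more above other nuclei. The class with the highest percentage of markers counted gave the name, with 3 markers needed. Totals left out mitochondrial genes and Malat1.

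UMIs were summed per class and library and compared without a test, since each group had 1 library. Genes needed 50 UMIs over both libraries. A fold against 0 UMIs used a floor of 3 UMIs. The ratio intervals were checked on simulated counts drawn from the model they assume. That check does not cover UMIs that gather in a few nuclei. In adipocyte-, macrophage- and progenitor-like nuclei the text names the 10 genes higher and the 10 lower with the largest interval bound nearest 0, in other classes with 100 or more nuclei in both libraries 3 and 3, leaving out unnamed gene models and genes under 2-fold above mesothelial-like nuclei (endothelial-like for the mesothelial class) of the same library, and besides these members of the gene lists. A few genes that this rule or the lists would name are not reported here. TMM factors came from edgeR 4.0.16 (R 4.3.3). Promoters came from RefSeq. The comparison, the gene lists and the markers were chosen with earlier results of these data known. Subtracting the other classes, clustering without marker genes and leaving out small sub-clusters were chosen after seeing the data. PCR copies are collapsed by UMIs, and intervals do not cover differences between mice, dissections or library preparations.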

Additional observations from a re-analysis of the deposited data

How the results depend on the processing

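No paired analysis was possible because each group had 1 library, and for the same reason no library could be left out. Of 67 differences in shares recomputed under the alternatives 40 stayed within the counting interval of the reported value, of 266 counts of genes 180 stayed within 1.5 times, of 471 list medians 451 stayed on the same side of a log2 ratio of 1 in size, and of 876 ratios of named genes 752 stayed within their counting interval. The cause was not tested for the others unless the alternative's own construction gives it. The difference HCH minus CCH in the macrophage-like share was 14.3 points without correction for library and 13.5 with only the 2 libraries clustered, and without the upper limit on genes the adipocyte-like difference was -12.1 and the progenitor-like difference -0.654. For LAM-like nuclei the difference was 19.2 with mixed low-count clusters kept, 30.0 without correction, 9.48 at resolution 1, 28.0 with the 2 libraries alone, 21.1 without markers and shared genes and 15.3 without all genes past the fold as well. For PVM-like nuclei it was -63.0 without correction, -26.6 at resolution 1, -33.2 with the 2 libraries alone, -25.9 without the gene limit, -26.3 with doublets kept, and -25.2 and -11.7 in the clusterings without those genes. For FIP-like nuclei it was -19.1 without correction. Genes higher in adipocyte-like nuclei numbered 2160 without the gene limit, 2146 at a minimum of 20 UMIs, 306 at 200 UMIs and 411 when past the fold also after subtraction of the other classes, and lower genes 370 with TMM factors, 949 with the reference class subtracted, 273 at 20 UMIs, 80 at 200 and 65 after subtraction of the other classes. In macrophage-like nuclei the higher genes were 3029 with the reference class subtracted, 1038 at 200 UMIs and 194 after subtraction of the other classes, and the lower genes 1721, 323 and 278, with 1161 at 20 UMIs. In progenitor-like nuclei the higher genes were 2377, 591 and 106 in the same order and the lower genes 1749, 68 and 14, with 263 at 20 UMIs and 226 where the interval excluded a log2 ratio of 0.5. After subtraction of the other classes the median log2 ratio reversed for cathepsins (-0.26), MHC class II presentation (-1.13) and chemokines and receptors (-1.46) in macrophage-like nuclei. Saxo1 reversed there to 0.39 without correction, 0.53 with the 2 libraries alone and 0.56 with doublets kept, and Alox15 to 0.26 without correction. Depth limits genes under 50 UMIs, which were not read.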

Other observations

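Hsph1 and Stip1 of the heat shock system were lower in HCH than in CCH in most cell classes. Hsph1, a nucleotide exchange factor of HSP70, was past the fold and lower in 8 of 9 classes tested (median log2 ratio -1.81), Stip1, which links HSP70 to HSP90, in 6 of 9 (-1.33), Hspa4l in 5 of 8 (-1.07) and Chordc1 in 4 of 10. CCH was the library that stood apart: Hsph1 had 98.2 CPM in its adipocyte-like nuclei, 26.6 in HCH and 24.0 to 47.3 in the 7 other libraries. Bag3, Dnaja1, Dnajb4 and Fkbp4, also co-chaperones, were past the fold and lower in none of the classes tested, and Ahsa1 in 1 of 7. Hspa8, the constitutive HSP70, was higher past the fold in 4 of 10 classes (median 0.85), and Hsp90aa1 and Hsp90ab1 were past it in none of 10 (medians 0.15 and 0.28). Cryab was higher past the fold in 3 of 4 classes (median 1.51), Hspe1 in 3 of 7 and Hspb1 in 2 of 5. Hspa1a was tested in 2 classes and Hspa1b in 3, too few to compare. These genes were looked up after Hsph1 was seen among the genes lower in most classes.

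Pnpla3, a lipase-like protein of the droplet that follows lipid synthesis, was past the fold and lower in 9 of 10 classes (median log2 ratio -1.88), as was Mageb18 (-1.80). Both had medians near that of Cyp2e1 (-2.09), the gene lower in all 10. Pnpla3 is known from adipocytes and hepatocytes, yet adipocyte-like nuclei were the class where it was not past the fold (-0.59).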
